A study of Homo sapiens with 16 samples.

Results

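The insulin-like growth factor (IGF) axis was followed here as 10 genes out of the 40663 in the table: the ligands IGF1 and IGF2, the receptors IGF1R and IGF2R, and the binding proteins IGFBP2 to IGFBP7. They were chosen by gene symbol, from a list drawn up with a result of these same data known, in which IGFBP3 stood higher after belinostat than after vehicle. The members were therefore selected on the belinostat versus vehicle contrast, and its values are given below as a description without a test. For IGFBP3 this holds in every contrast with belinostat. Its vehicle values were part of the same selection, so adjusted p-values of IGFBP3 in contrasts with vehicle are descriptions too. The lists of other genes below were also written with earlier results of these data known. Their adjusted p-values are therefore descriptions and not independent tests.

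RNA was sequenced from 16 libraries of Ccd18-Co, an established line of human colonic fibroblasts, with 4 libraries in each of 4 groups. All cells received 5 days of DMSO (diluted 1:5000) or of a compound, and RNA was taken 2 weeks later. The unstimulated group received DMSO and no cytokines. In the other groups, per the labels, 3 pulses of TNF, OSM and IL-17A (10 ng/ml each) with IL-1B (0.1 ng/ml) came first, each pulse lasting 72 h in serum-free medium and followed by a 96 h recovery. These cells then rested for 1 week and were given DMSO (the vehicle group), 250 nM belinostat, which inhibits histone deacetylases, or 10 µM GSK-J4, which inhibits demethylases of lysine 27 on histone H3. No group received a compound without cytokines. Contrasts of a compound group with unstimulated cells therefore join cytokines and compound, which cannot be told apart there. The concentrations are those of the labels. For IL-1B the study's methods give a lower one, while the legend for this experiment gives 0.1 ng/ml. For belinostat the supplement gives a higher concentration for all assays unless stated otherwise. The legend of the study's CXCL5 ELISA gives belinostat and GSK-J4 the same concentration, above 250 nM and below 10 µM. The doses of IL-1B, belinostat and GSK-J4 are therefore uncertain. Per the study's methods, cells recovered in full growth medium, which held 20% fetal bovine serum. The model is a single cell line at up to passage 20. The study's legends give 3 replicates per group for this RNA-seq, called biological in 1 legend, while another part of its methods mentions technical replicates. Its reporting summary says that outlying samples may have been excluded. Here all 4 libraries of each group were kept. The labels do not say whether the replicates of a group were separate cultures, so p-values measure the spread between these samples, which may be technical.

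IGF1 and IGF2 are secreted peptides that act through IGF1R, a receptor tyrosine kinase upstream of PI3K and AKT. IGF2R carries no kinase and takes IGF2 into the cell for breakdown. The binding proteins hold the ligands outside the cell and are cut by proteases such as PAPPA, which the stanniocalcins STC1 and STC2 block. IGFBP7 binds IGFs only weakly and is grouped with the family by its domain. Mesenchymal cells such as fibroblasts are a main local source of these proteins.

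The binding proteins carried the largest differences and the highest levels, so the promoters of IGFBP3 (the member that differed most between groups), IGFBP5 (the most abundant) and IGFBP4 (a neighbor in level that was not called in any contrast) are shown. Each sequence is the RefSeq window of the 250 bases before the start on assembly GRCh38.p14, read 5′ to 3′ on the gene's own strand. Capitals mark matches on either strand to the searched motifs, which were TATAAA (the TATA box), TATATA (its variant), GGGCGG (the GC box) and CCAAT (the CCAAT box). A GC box on the opposite strand reads CCGCCC, and no 2 matches overlap in these windows.
IGFBP3, chr7:45921273-45921522, minus strand: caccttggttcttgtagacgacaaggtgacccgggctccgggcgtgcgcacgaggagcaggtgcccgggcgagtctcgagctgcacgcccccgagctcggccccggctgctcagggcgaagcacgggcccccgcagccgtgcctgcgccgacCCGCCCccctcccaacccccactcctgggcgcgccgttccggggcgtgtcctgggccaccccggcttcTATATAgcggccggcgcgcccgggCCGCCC
IGFBP4, chr17:40443200-40443449, plus strand: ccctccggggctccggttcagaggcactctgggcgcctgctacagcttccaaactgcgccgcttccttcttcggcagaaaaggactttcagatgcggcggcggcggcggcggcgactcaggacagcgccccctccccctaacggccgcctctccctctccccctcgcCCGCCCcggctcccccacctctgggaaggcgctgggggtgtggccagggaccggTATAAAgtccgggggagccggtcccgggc
IGFBP5, chr2:216695550-216695799, minus strand: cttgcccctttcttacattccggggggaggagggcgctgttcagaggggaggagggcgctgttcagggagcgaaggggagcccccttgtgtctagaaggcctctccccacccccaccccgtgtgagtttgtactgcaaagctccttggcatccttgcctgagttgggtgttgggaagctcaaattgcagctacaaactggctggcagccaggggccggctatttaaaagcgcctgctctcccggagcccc
IGFBP3 held TATATA with its first base 30 bases before the start and GGGCGG on the opposite strand at 98 and 6 bases. IGFBP4 held TATAAA at 29 bases and GGGCGG on the opposite strand at 83 bases. IGFBP5 held no exact match to the 4 motifs in this window. Near matches, such as the tatttaaa close to the end of the IGFBP5 window, were not searched. Whether IGFBP5 has a TATA box is therefore not settled by this search. Over all 35116 promoters of the table, 10.7% held TATAAA, 3.7% TATATA, 42.6% GGGCGG and 32.0% CCAAT on at least 1 strand. The GC content was 76.0% for IGFBP3, 71.6% for IGFBP4 and 61.2% for IGFBP5, against a median of 58.0%, and the windows held 32, 24 and 8 CpG sites against a median of 11. A longer annotated transcript of IGFBP3 starts upstream, and its window lies in an intron of that transcript and in no exon of the 9 annotated ones. The IGFBP5 window overlaps an exon of 1 of 19 transcripts of the antisense gene DIRC3-AS1. The table held no window for IGF2 and IGFBP7.

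Libraries held 14.42 to 19.48 M estimated counts. All 9 fibroblast markers examined were above 1 CPM (counts scaled to the library total), with a summed level of 24763 to 32286 CPM. None of 6 epithelial markers reached a mean of 1 CPM (summed level 0.272 to 1.792 CPM). Of the leukocyte markers CD14 alone did, while PTPRC, which all leukocytes carry, stayed at or under 0.286 CPM. The summed leukocyte level was 2.208 to 6.06 CPM in unstimulated cells, 4.793 to 11.311 in vehicle, 6.381 to 14.57 after belinostat and 4.636 to 9.006 after GSK-J4, and its part in the results below was not tested. Of 4 endothelial markers (summed level 1.359 to 2.721 CPM), VWF alone reached a mean of 1 CPM, at 0.758 to 2.259 CPM. Belinostat replicate 17 stood apart: its mean Pearson r with the other libraries of its group, across genes, was 0.9871, against 0.9912 to 0.9963 for the other 15 libraries with theirs. It lay outside the other 3 belinostat libraries by more than their whole range for IGF1, IGF2, IGF2R, IGFBP3, IGFBP6 and IGFBP7. Several values with belinostat are therefore given with and without it, and for some others the range over the alternative fits is given. In bulk RNA, fewer expressing cells and less RNA per cell cannot be told apart.

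IGFBP5 took 1.91% of all estimated counts (1.43% to 2.45% across libraries), the largest share of any gene, with no correction for length. Per kilobase of merged exons, IGFBP5 averaged 2950 CPM over the 16 libraries, followed by IGFBP4 at 688, IGFBP7 at 440 and IGF2 at 217 CPM per kilobase. IGFBP6 (64.8), IGFBP3 (58.7) and IGF2R (15.3 CPM per kilobase) formed a middle tier. With the longest transcript as the length, IGFBP3 stood above IGFBP6 (102 against 74.2 CPM per kilobase), so their order depends on the transcript assumed. IGF1 averaged 0.429, IGFBP2 0.0621 and IGF1R 0.0208 CPM per kilobase. IGFBP1, the one IGFBP gene outside the list, was at 0 to 5 counts in every library, although it lies 18.6 kb from IGFBP3 on chromosome 7. IGFBP2 lies 7.7 kb from IGFBP5 on chromosome 2 and was at 2 to 12 counts.

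**Figure D1:**
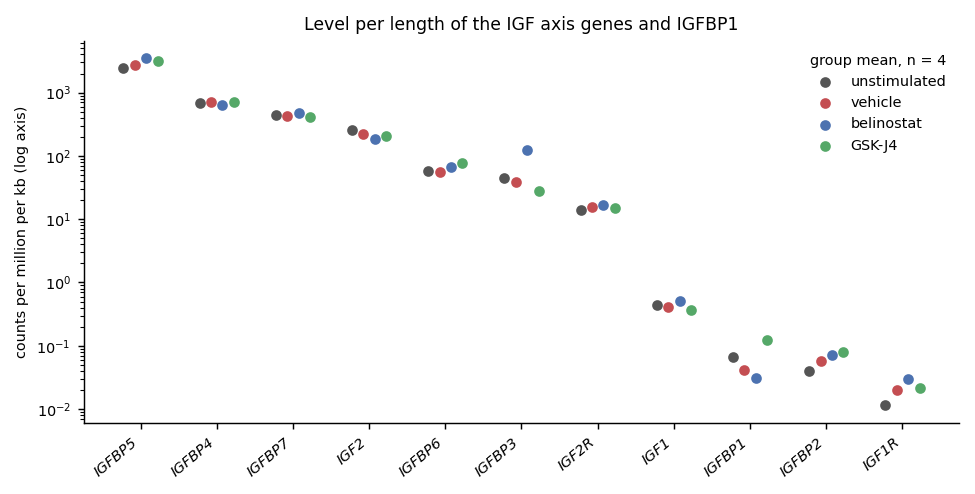
Mean level of each IGF axis gene and IGFBP1 in CPM per kilobase of merged exons (log axis), by group (points, n = 4 libraries each). IGFBP5 stands highest at 2950 CPM per kilobase over all libraries, and IGF1R lowest at 0.0208.

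Of the ligands, IGF2, a growth factor best known from fetal tissue, stood at 217 CPM per kilobase and IGF1 at 0.429. IGF2 (ENSG00000167244.22, chr11:2129112-2158391, minus strand in the GENCODE annotation of GRCh38) gave 26437, 32365, 31791 and 38307 normalized counts (counts divided by the size factor of the library) in unstimulated cells and 28662, 29997, 28407 and 23577 in vehicle. It gave 15353, 25706, 23841 and 26703 normalized counts after belinostat and 23354, 26708, 27440 and 27521 after GSK-J4. The unstimulated libraries were the highest as a group and belinostat replicate 17 was the lowest library. IGF2 was lower after belinostat than in unstimulated cells, at -0.49 in log2 units (SE 0.14, DESeq2 adjusted p 0.00732), though the highest belinostat library passed the lowest unstimulated one. Without unstimulated replicate 4 this call was lost (-0.40, DESeq2 adjusted p 0.0689), and without belinostat replicate 17 the value was -0.34 and still called. The change from unstimulated to vehicle was -0.22 (SE 0.14, DESeq2 adjusted p 0.755) and that from unstimulated to GSK-J4 was -0.30 (SE 0.14, DESeq2 adjusted p 0.273), which was called in a fit of those 2 groups alone (adjusted p 0.0494) and without belinostat replicate 17 (adjusted p 0.0268). Belinostat against vehicle gave -0.27 (95% interval -0.55 to 0.00) with all libraries and -0.12 without belinostat replicate 17.

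IGF2-AS, an antisense RNA inside IGF2, stood at 241.1 ± 30.7, 198.3 ± 5.9, 159.7 ± 38.5 and 185.2 ± 20.3 normalized counts (SD, n = 4) in unstimulated, vehicle, belinostat and GSK-J4 cells. It was lower after belinostat than in unstimulated cells, at -0.60 in log2 units (SE 0.15, DESeq2 adjusted p 0.00195). Belinostat replicate 17 was the lowest library, at 105.0 normalized counts. Over the alternative fits the value ran from -0.71 to -0.43 and was called in each. Per the study's methods kallisto was run at default settings, which use no strand, so reads from bases that IGF2 and IGF2-AS share cannot be told apart here. INS-IGF2, a read-through transcript that shares exons with IGF2, was at 0 to 3 counts. H19, the imprinted neighbor of IGF2, was also at 0 to 3 counts per library.

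IGF1 (ENSG00000017427.17, chr12:102395874-102481744, minus strand) was low and variable. Its normalized counts were 39.57, 5.01, 132.27 and 70.3 in unstimulated cells, 55.2, 68.99, 60.55 and 47.03 in vehicle, 32.46, 76.93, 79.83 and 98.64 after belinostat and 47.8, 56.31, 51.81 and 52.41 after GSK-J4. The unstimulated libraries held both the lowest and the highest value, and no group stood outside that range. Belinostat over vehicle was 0.31 in log2 units with all libraries and 0.56 without replicate 17. No contrast was called, and the 95% interval of the log2 fold change of vehicle over unstimulated cells ran from -1.27 to 1.08.

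Of the receptors, IGF2R was readily measured and IGF1R was not. IGF1R (ENSG00000140443.15, chr15:98648539-98964530, plus strand) was at 0 to 11 estimated counts in every library and at 0 in 2 of them, and a count of 0 allows up to 3 counts. No direction is read from these values. INSR, the closely related insulin receptor, chosen for this comparison after its values were seen, averaged 2.73 to 3.19 CPM per kilobase by group. Levels of IGF1R this low were measured in the table as deposited, and how reads of the gene were assigned was not examined.

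IGF2R (ENSG00000197081.16, chr6:159969082-160113507, plus strand) gave 4947, 5053, 6297 and 5627 normalized counts in unstimulated cells and 6153, 6213, 6153 and 6378 in vehicle. After belinostat it gave 8529, 5998, 5955 and 5970 normalized counts and after GSK-J4 6213, 6058, 5530 and 5878. Apart from belinostat replicate 17, which was the highest of all libraries, the 3 cytokine-pulsed groups lay within 5530 to 6378 normalized counts. The log2 fold change of belinostat over unstimulated cells was 0.27 (SE 0.10, DESeq2 adjusted p 0.0752), and leaving out unstimulated replicate 3 or belinostat replicate 19 made it a call (0.34 and 0.32), while without belinostat replicate 17 it was 0.12 (adjusted p 0.293). Belinostat against vehicle was 0.09 (95% interval -0.12 to 0.29), and -0.06 without belinostat replicate 17.

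**Figure D2:**
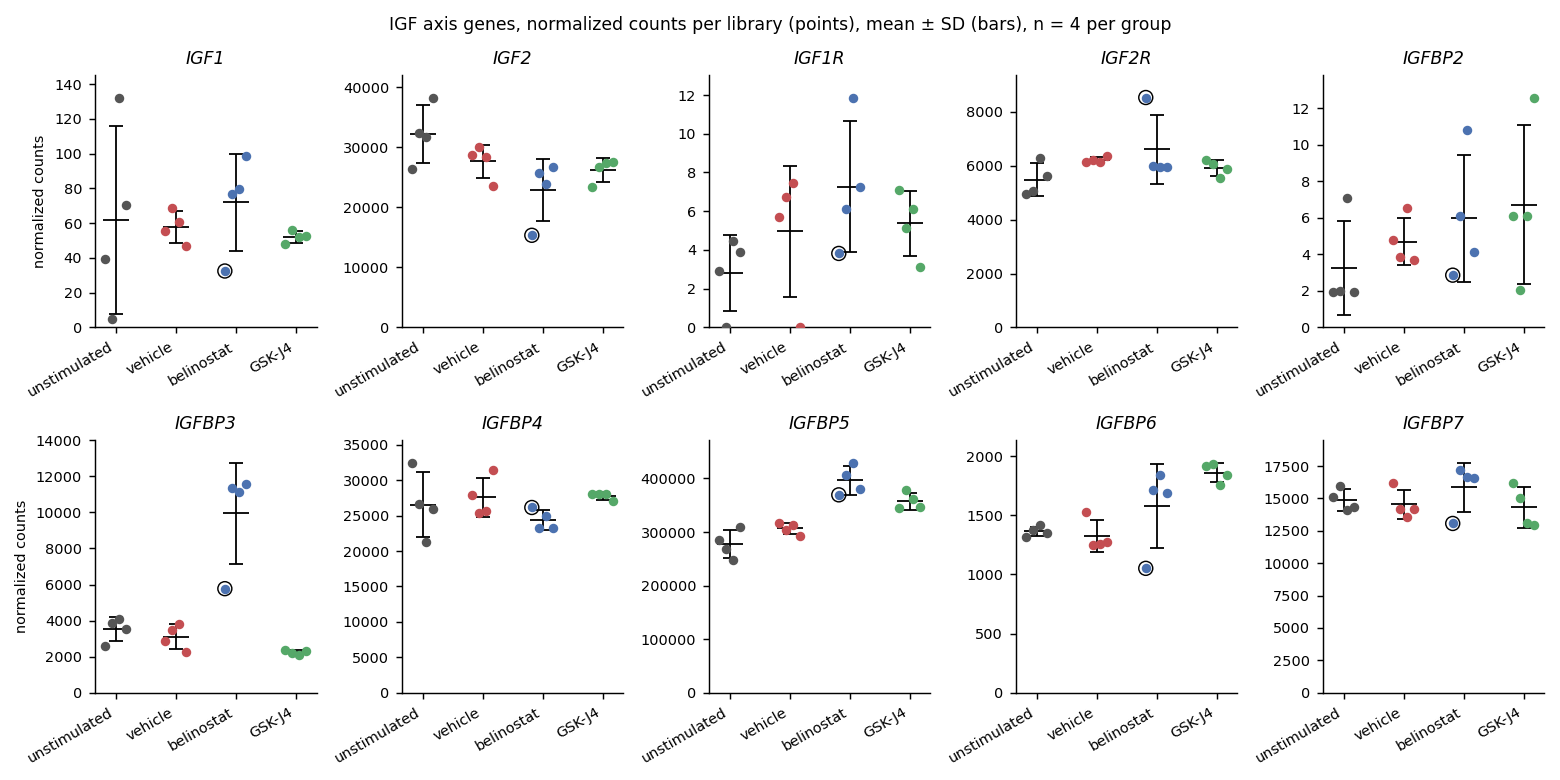
Normalized counts (vertical axes, from 0) of the 10 IGF axis genes in each of the 16 libraries (points), with the mean and SD of each group (bars, n = 4) and belinostat replicate 17 circled. IGFBP3 ranges from 5769 to 11572 after belinostat and from 2071 to 4072 in all other libraries.

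IGFBP3 carries most circulating IGF and is also made by fibroblasts. It (ENSG00000146674.16, chr7:45912245-45921874, minus strand) gave 2568, 3891, 4072 and 3548 normalized counts in unstimulated cells and 2847, 3504, 3785 and 2234 in vehicle. After belinostat it gave 5769, 11343, 11123 and 11572 normalized counts, and after GSK-J4 2378, 2186, 2071 and 2311. All belinostat libraries stood above all 12 others, and the lowest of them was replicate 17. The values that selected this gene were a log2 fold change of 1.69 over vehicle (SE 0.23, 95% interval 1.24 to 2.13), or 3.22-fold. Without replicate 17 it was 1.88. The log2 fold change was 1.5 (SE 0.23) over unstimulated cells and 2.15 (SE 0.23) over GSK-J4, or 2.83-fold and 4.45-fold.

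The GSK-J4 values of IGFBP3 lay at the low end and close together (2236 ± 136 normalized counts, SD, n = 4), below all unstimulated libraries and overlapping vehicle. Against unstimulated cells the log2 fold change was -0.65 (SE 0.23, DESeq2 adjusted p 0.0647). It was called when those 2 groups were fitted alone (adjusted p 3.71e-06), without unstimulated replicate 1, and without belinostat replicate 17 (adjusted p 0.00126). Against vehicle it was -0.47 (SE 0.23, DESeq2 adjusted p 0.452), and no alternative called it. Vehicle differed from unstimulated cells by -0.19 (SE 0.23, DESeq2 adjusted p 0.947).

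IGFBP5, a binding protein that also attaches to extracellular matrix, was higher after cytokine pulses with either compound than in unstimulated cells. It (ENSG00000115461.5, chr2:216672105-216695549, minus strand) gave 285815, 267736, 247901 and 310199 normalized counts in unstimulated cells and 317201, 303326, 313408 and 292950 in vehicle. After belinostat it gave 369403, 406586, 429185 and 380835 normalized counts, and after GSK-J4 344318, 377851, 360847 and 346779. The libraries of both compounds stood above all vehicle and unstimulated libraries, while the 2 compounds overlapped with each other, as did vehicle and unstimulated cells.

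The log2 fold change of IGFBP5 over unstimulated cells was 0.51 after belinostat (SE 0.07, DESeq2 adjusted p 1.42e-12) and 0.36 after GSK-J4 (SE 0.07, DESeq2 adjusted p 3.97e-06), and both calls held in every alternative fit. Vehicle over unstimulated cells was 0.14 (SE 0.07, DESeq2 adjusted p 0.451). Against vehicle, belinostat gave 0.37 (SE 0.07, 95% interval 0.24 to 0.50), or 1.29-fold. GSK-J4 against vehicle gave 0.22 (SE 0.07, DESeq2 adjusted p 0.0424). That call was lost under edgeR and without any one of the 8 libraries compared (0.19 to 0.24, adjusted p up to 0.277). Of 14 alternatives, 5 kept it and 9 lost it. The contrasts of both compounds with vehicle use the same vehicle libraries. The direct difference between belinostat and GSK-J4 was 0.15 (SE 0.07, 95% interval 0.02 to 0.28, DESeq2 adjusted p 0.128), which was called without belinostat replicate 17 and with library totals as size factors.

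IGFBP6, which prefers IGF2 over IGF1, was higher after GSK-J4. It (ENSG00000167779.9, chr12:53097436-53102345, plus strand) gave 1319, 1373, 1413 and 1352 normalized counts in unstimulated cells, 1531, 1250, 1254 and 1277 in vehicle, 1051, 1717, 1843 and 1685 after belinostat, and 1917, 1930, 1751 and 1844 after GSK-J4. All GSK-J4 libraries stood above all vehicle and unstimulated ones, and belinostat replicate 17 was the lowest library of all. The log2 fold change of GSK-J4 over unstimulated cells was 0.45 (SE 0.12, DESeq2 adjusted p 0.00997) and was called in every alternative. Over vehicle it was 0.49 (SE 0.12, DESeq2 adjusted p 0.0100), a call that edgeR did not make (adjusted p 0.0793). Leaving out replicate 14, 15 or 16 of vehicle, or 21 or 22 of GSK-J4, removed it (0.46 or 0.47, DESeq2 adjusted p 0.0556 to 0.0723). Of 14 alternatives, 8 kept this call and 6 lost it. Belinostat over unstimulated cells was 0.21 (SE 0.12, DESeq2 adjusted p 0.355) with all libraries and 0.36 (adjusted p 1.84e-05) without replicate 17. Over vehicle belinostat gave 0.24 (95% interval 0.00 to 0.49) with all libraries and 0.40 without replicate 17.

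IGFBP4, the main substrate of PAPPA, and IGFBP7 were not called in any contrast. IGFBP4 (ENSG00000141753.7, chr17:40443450-40457725, plus strand) ranged from 21225 to 32461 normalized counts in unstimulated cells, 25437 to 31388 in vehicle, 23237 to 26153 after belinostat and 27018 to 28103 after GSK-J4. Belinostat and GSK-J4 libraries did not overlap, with a log2 difference of -0.19 (SE 0.10, DESeq2 adjusted p 0.239) that was called only in a fit of those 2 groups (adjusted p 0.00338). IGFBP7 (ENSG00000163453.11, chr4:57030773-57110385, minus strand) ranged from 12919 to 17172 normalized counts, and every group overlapped every other. Its belinostat over GSK-J4 change was 0.15 (SE 0.09, DESeq2 adjusted p 0.344), and 0.23 (adjusted p 0.0245) without belinostat replicate 17. IGFBP2 (ENSG00000115457.10), at 2 to 12 counts, gave no direction.

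**Figure D3:**
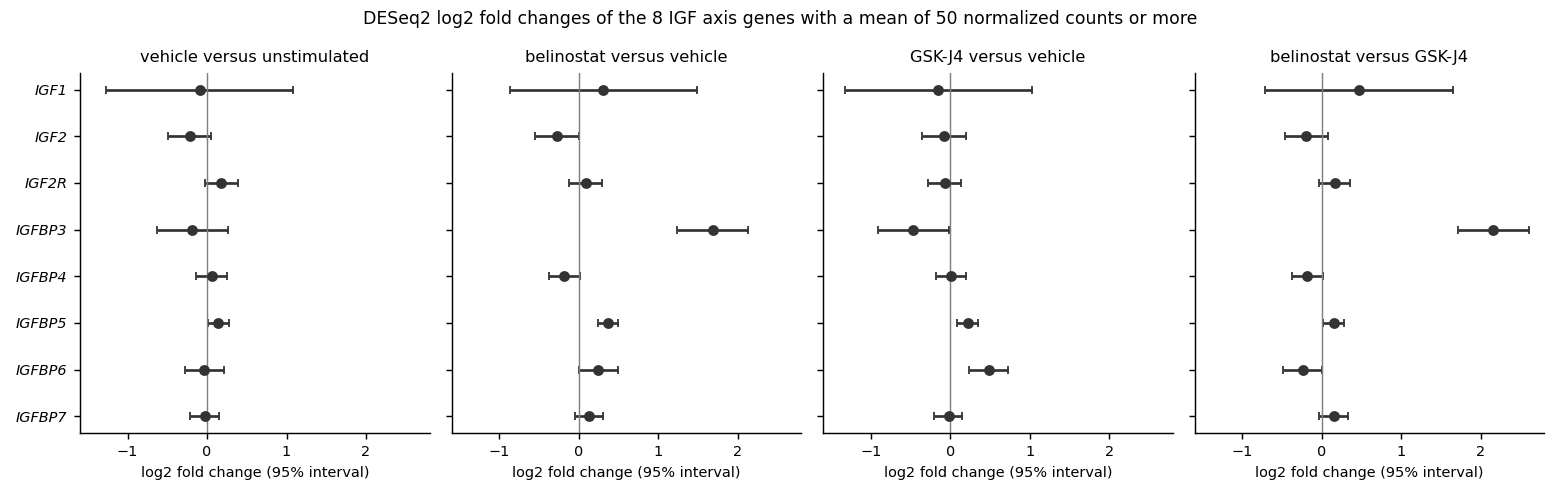
DESeq2 log2 fold changes (points) with 95% intervals (bars) of the 8 IGF axis genes with a mean of at least 50 normalized counts, in 4 contrasts that share libraries. IGFBP3 reaches 1.69 over vehicle and 2.15 over GSK-J4 after belinostat, and all other points lie between -0.47 and 0.49.

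Counted over the members, vehicle against unstimulated cells called 0 of 10 tested with DESeq2 and 0 with edgeR, and IGFBP5 alone had an unadjusted p under 0.05, against 1.74% of all tested genes called. Their median log2 fold change was 0.02. GSK-J4 against vehicle called 2 of 8 (IGFBP5 and IGFBP6, both higher) against 1.92% of all genes, and 0 of 8 under edgeR. In belinostat against unstimulated cells, IGFBP5 (higher) and IGF2 (lower) were called, and IGFBP3, whose belinostat values chose the list, made the count 3 of 8, where 10.3% of all genes were called. GSK-J4 against unstimulated cells called 2 of 10 (IGFBP5 and IGFBP6 higher) against 5.55%. In belinostat against GSK-J4, where 12.2% of all genes were called, IGFBP3 was the single member of 8 past the threshold, and nothing is read from it because its belinostat values chose the list. Without belinostat replicate 17, IGFBP5 and IGFBP7 also passed, where 14.6% of all genes were called. Belinostat against vehicle, the contrast that chose the members, called 2 of 8 (IGFBP3 and IGFBP5, both higher), where 6.26% of all genes were called, and nothing is read from that count. Medians over the members tested were 0.18 for belinostat against vehicle, -0.05 for GSK-J4 against vehicle and 0.15 for belinostat against GSK-J4. Against unstimulated cells they were 0.22 for belinostat and 0.09 for GSK-J4. Over all genes tested, medians lay between -0.01 and 0.00. The members were chosen on belinostat against vehicle, and the other belinostat medians include IGFBP3, so nothing is read from the medians with belinostat.

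The summed IGFBP2 to IGFBP7 counts made up 1.85% ± 0.146 of all counts in unstimulated cells, 2.02% ± 0.0479 in vehicle, 2.56% ± 0.162 after belinostat and 2.29% ± 0.0719 after GSK-J4 (SD, n = 4), mostly through IGFBP5. Per length, IGFBP5 held 66.6% ± 2.24, 68.6% ± 1.77, 73.0% ± 0.712 and 71.6% ± 1.23 of the summed IGFBP level in the same order of groups. IGFBP4 held 18.6% ± 2.21, 18.1% ± 1.82, 13.2% ± 1.32 and 16.4% ± 0.443. IGFBP3 held 1.21% ± 0.314, 0.981% ± 0.228, 2.58% ± 0.657 and 0.635% ± 0.0523, a small part of the pool in every group. These shares are descriptions and were not tested.

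Among 14 other secreted and surface parts of the IGF system, STC1, STC2, PAPPA and ADAM9 were called in some contrasts. This list and those below were written with earlier results of these data known. In vehicle against unstimulated cells 1 of 10 tested was called (STC1), where 1.74% of all genes were. Belinostat against vehicle called 1 of 8 (STC2) against 6.26%, and GSK-J4 against vehicle called 0 of 8 against 1.92% (0 by edgeR, PAPPA at an unadjusted p of 0.0446). Belinostat against GSK-J4 called 2 of 8 (STC2 and ADAM9) against 12.2%. Against unstimulated cells, belinostat called 3 of 8 against 10.3% and GSK-J4 called 3 of 11 against 5.55%. STC1, an inhibitor of PAPPA, gave 268 to 350 normalized counts in unstimulated cells and 445 to 783 in vehicle, with no overlap. The log2 fold change was 0.97 (SE 0.18, DESeq2 adjusted p 1.97e-05) and was called in every alternative. STC1 was also higher than in unstimulated cells after belinostat (0.74, SE 0.18) and GSK-J4 (0.77, SE 0.18), each with a DESeq2 adjusted p of 0.00107. Belinostat against vehicle was -0.23 for STC1 (SE 0.18, DESeq2 adjusted p 0.612), and -0.45 without belinostat replicate 17, where it was called.

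PAPPA, chosen for description after its values were seen, encodes the protease that frees IGF from IGFBP4 and IGFBP5. It gave 1648, 1322, 1736 and 1499 normalized counts in unstimulated cells, 2260, 2373, 2528 and 2857 in vehicle, and 3947, 3470, 3700 and 3786 after GSK-J4. After belinostat, replicates 18 to 20 gave 1983, 1879 and 1840 normalized counts and replicate 17 gave 5198. The unstimulated, vehicle and GSK-J4 libraries thus did not overlap, and the belinostat libraries lay on both sides of vehicle. GSK-J4 over unstimulated cells was 1.26 (SE 0.29, DESeq2 adjusted p 0.000557), called in every alternative.

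For PAPPA, the log2 fold change of vehicle over unstimulated cells was 0.69 (SE 0.29, DESeq2 adjusted p 0.320), and 8.25e-14 was its adjusted p once belinostat replicate 17 was left out of the shared fit. That of GSK-J4 over vehicle was 0.57 (SE 0.29, DESeq2 adjusted p 0.477), and its adjusted p without that library was 1.89e-09. The fold changes themselves were unchanged to 2 decimals, and both were also called when only the groups compared were fitted (adjusted p 1.39e-09 and 7.1e-13). PAPPA and all its alternative fits were chosen after its values were seen, so these adjusted p-values are a description without a test. Belinostat over vehicle turned from 0.12 (SE 0.29) with all libraries to -0.40 (SE 0.09) without replicate 17. Belinostat over unstimulated cells was 0.81 (SE 0.29, DESeq2 adjusted p 0.0451) with all libraries and 0.29 (adjusted p 0.0173) without it. That call was lost under edgeR, with TMM factors, with only the groups compared, and without unstimulated replicate 1 (0.84), 2 (0.74) or 4 (0.80).

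STC2, another inhibitor of PAPPA, gave 6074 to 6942 normalized counts in vehicle and 7133 to 9544 after GSK-J4. Belinostat replicates 18 to 20 gave 3684 to 4311 normalized counts and replicate 17 gave 6665. Belinostat against GSK-J4 was -0.74 (SE 0.14, DESeq2 adjusted p 6.12e-06), called in every alternative (-0.95 to -0.63). Belinostat against vehicle was -0.47 (SE 0.14, DESeq2 adjusted p 0.0188), and -0.68 to -0.37 over the alternatives. It was not called under edgeR or without vehicle replicate 13 (-0.44) or 16 (-0.45). Leaving out belinostat replicate 18 (-0.37), 19 (-0.43) or 20 (-0.42) also removed the call. ADAM9, a membrane metalloprotease, was higher after belinostat than after GSK-J4 by 0.13 (SE 0.04, DESeq2 adjusted p 0.0174), a call that was lost under edgeR, with only the groups compared, and without belinostat replicate 17 (0.09) or GSK-J4 replicate 22 (0.12) or 24 (0.11).

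**Figure D4:**
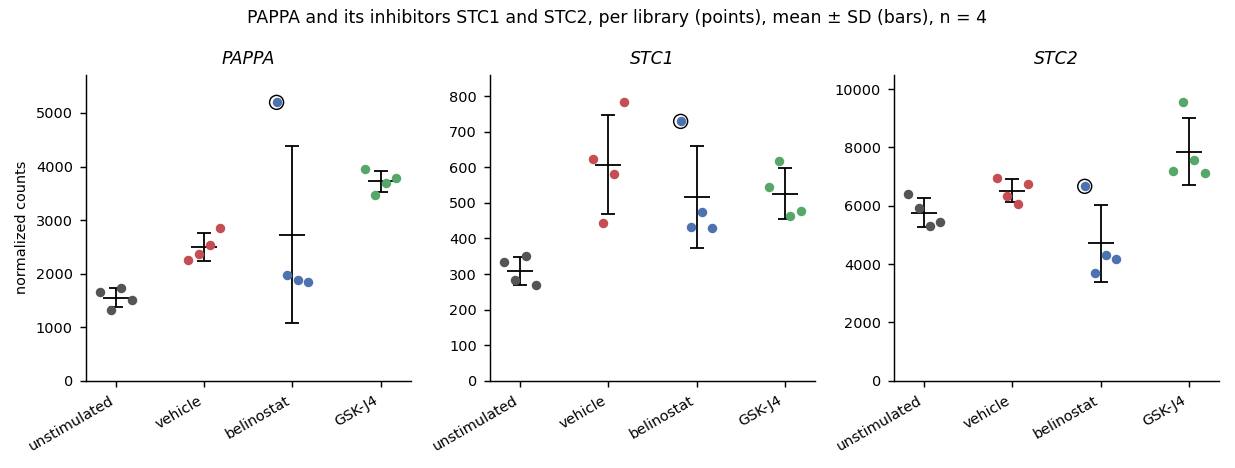
Normalized counts (vertical axes, from 0) of PAPPA, STC1 and STC2 in each library (points), with mean and SD per group (bars, n = 4) and belinostat replicate 17 circled. PAPPA does not overlap between unstimulated, vehicle and GSK-J4 libraries, and the circled library at 5198 lies far above the other belinostat libraries.

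Of 34 signaling genes listed below IGF1R, 32 were tested. DESeq2 called 0 in vehicle against unstimulated cells (1.74% of all genes) and in GSK-J4 against vehicle (1.92%), with 3 genes at an unadjusted p under 0.05 in each and 0 called by edgeR. It called 1 in belinostat against vehicle (6.26%), 4 in belinostat against GSK-J4 (12.2%), 2 in belinostat against unstimulated cells (10.3%) and 1 in GSK-J4 against unstimulated cells (5.55%). SOCS3, a feedback inhibitor of cytokine receptors, was lower after belinostat than vehicle at -0.26 in log2 units (SE 0.08, DESeq2 adjusted p 0.0186), a call lost without vehicle replicate 13 (-0.23) or 16 (-0.24) or belinostat replicate 17 (-0.22), 18 (-0.25) or 19 (-0.25). Between belinostat and GSK-J4, IRS1, the adaptor that links the receptor to PI3K, was higher after belinostat (0.22, SE 0.05, DESeq2 adjusted p 5.8e-05). RHEB, the small GTPase that activates mTOR, was lower (-0.30, SE 0.08, DESeq2 adjusted p 0.00108), and both calls held in every alternative.

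Of 12 other genes whose products hold an IGFBP-type domain, 2 of 10 tested were called in vehicle against unstimulated cells, beside 1.74% of all genes. Belinostat against vehicle called 2 of 9 (6.26%), GSK-J4 against vehicle 0 of 8 (1.92%, with 0 by edgeR and CCN4 at an unadjusted p of 0.0136) and belinostat against GSK-J4 4 of 9 (12.2%), with the share of all genes in parentheses. Against unstimulated cells belinostat called 1 of 9 (10.3%) and GSK-J4 4 of 10 (5.55%). The serine protease gene HTRA1 was lower in vehicle than in unstimulated cells (-0.25, SE 0.05, DESeq2 adjusted p 0.000815). CCN4, which encodes a matricellular protein of the CCN family, was higher there (0.27, SE 0.08, DESeq2 adjusted p 0.0448), but edgeR did not call it and 7 of the 8 fits that left out a compared library lost the call (0.21 to 0.29, all but the fit without vehicle replicate 16). HTRA3, a relative of HTRA1, was lower after belinostat than vehicle (-0.57, SE 0.12, DESeq2 adjusted p 8.18e-05), and CRIM1, which encodes a membrane protein that binds BMPs, was higher (0.27, SE 0.07, DESeq2 adjusted p 0.00264). CCN2, or connective tissue growth factor, was higher after belinostat than after GSK-J4 (0.78, SE 0.21, DESeq2 adjusted p 0.00281). This value ran from 0.67 to 0.96 over the alternatives, and belinostat replicate 17 was the lowest library of its group at 2251 normalized counts. Of 7 genes for IGF2 mRNA binding proteins and imprinted partners, 4 were tested, and IGF2-AS against unstimulated cells after belinostat was the only call in the 6 contrasts, where 10.3% of all genes were called in that one.

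Genes whose pattern over the 16 libraries was most like that of a member were named by Pearson's r on the variance-stabilized scale, among 11733 genes. These libraries share 4 groups, so r mixes group differences with the spread between libraries of a group, and it carries no p. IGFBP3 was most like PRSS35 (0.973), NEGR1 (0.968) and SLC8A1 (0.965). IGFBP5 was most like SYT11 (0.902), DIRC3 (0.883) and NBR1 (0.868), and IGF2 was most like ARNT2 (0.952), IGF2-AS (0.930) and LINC00997 (0.929).

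DIRC3, a long noncoding RNA gene, lies 588.5 kb from IGFBP5 on the same strand of chromosome 2. It stood at 52.72 ± 4.49, 60.47 ± 4.21, 81.24 ± 12.2 and 64.35 ± 7.06 normalized counts (SD, n = 4) in unstimulated, vehicle, belinostat and GSK-J4 cells. Its only call was belinostat over unstimulated cells, at 0.62 (SE 0.17, DESeq2 adjusted p 0.0057), which was lost without belinostat replicate 19 (0.53).

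**Figure D5:**
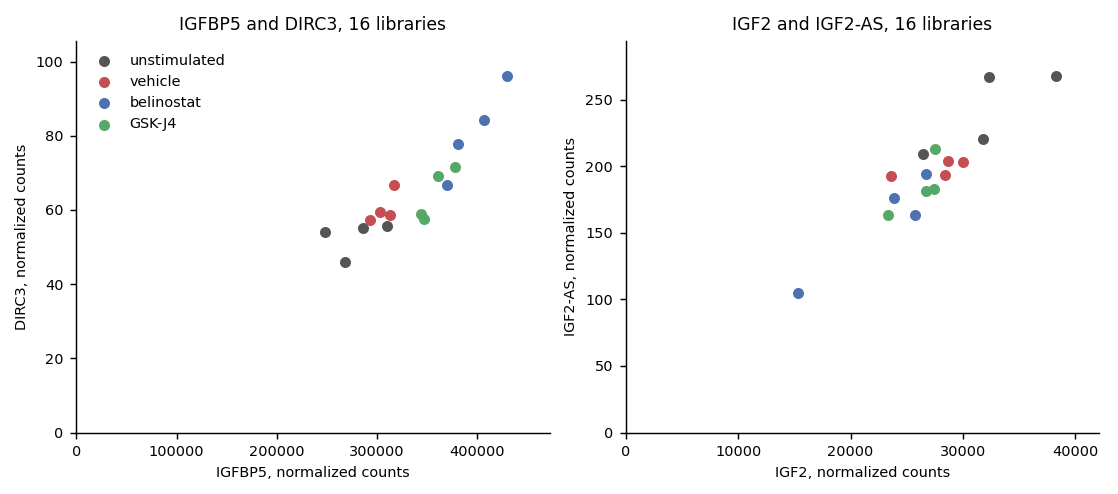
Normalized counts of DIRC3 against IGFBP5 (left) and of IGF2-AS against IGF2 (right), 1 point per library, colored by group. Pearson's r on the variance-stabilized scale was 0.883 and 0.930 over the 16 libraries, and belinostat replicate 17 is the lowest point on both axes at the right.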

How the data were processed

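RNA-seq was measured in 16 libraries of Ccd18-Co. Per the study's methods and the submitters' processing notes, the authors checked reads with FastQC 0.11.9 and MultiQC 1.14 and quantified them with kallisto 0.48.0, and the notes name build hg38. Their deposited table gives estimated counts by gene symbol, not scaled to library size, and 27.6% were not whole. Here they were rounded. Kallisto was run at default settings, which use no strand, and the transcript release was not given in the sources used here. Estimated counts divide reads that similar transcripts share. Columns of the unstimulated libraries read none where the titles give DMSO and were matched by replicate number.

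DESeq2 1.42.0 (R 4.3.3, Wald test, two-sided) was fitted to all 16 libraries by group alone, with its default size factors and filtering. Calls had a Benjamini-Hochberg adjusted p under 0.05 over all genes tested. Alternatives were edgeR 4.0.16 (quasi-likelihood), TMM factors, library totals, a filter of 10 counts in 4 libraries, the compared groups alone, and each library left out. Low genes can lack an adjusted p through independent filtering. On simulated data for belinostat versus vehicle (26907 genes), DESeq2 recovered 92 of 100 genes changed by 1.0 and 76 of 100 changed by 0.5 on the log2 scale, with 23 false calls; edgeR recovered 90 and 73, with 7. In this simulated set, false calls made up more than 0.05 of the DESeq2 calls, though not of the edgeR calls. DESeq2 calls near the threshold are therefore uncertain. The simulation followed the DESeq2 model, changed few genes and held no library like belinostat replicate 17, so recovery in the data may differ. Depth was 14.42 to 19.48 M estimated counts. Intervals cover the model's error, and floors counting error only.

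The members and lists were chosen with earlier results of these data known. Named were all members and IGFBP1; in 4 contrasts, the up to 3 called genes per list with the largest change (mean 50 normalized counts or more); and the 3 genes most like each of the 3 members that varied most. PAPPA and INSR were chosen after their values were seen.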

Additional observations from a re-analysis of the deposited data

Results flagged for a closer look

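Of the 40 sets of 4 libraries examined (10 genes in 4 groups), 6 had a library farther from its neighbors than Dixon's 95% limit allows, where chance flags about 5% of sets. In 3 of them it was belinostat replicate 17, with 8529 normalized counts of IGF2R (the others at 5955 to 5998), 5769 of IGFBP3 (the others at 11123 to 11572) and 13070 of IGFBP7 (the others at 16611 to 17172). Vehicle replicate 13 gave 1531 normalized counts of IGFBP6, above 1250 to 1277 in the others. GSK-J4 replicate 24 gave 27020 of IGFBP4, below 28000 to 28103. Unstimulated replicate 3 gave 7.102 normalized counts of IGFBP2, a gene near the detection floor.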

How the results depend on the processing

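No paired analysis was possible because the groups share no replicate numbers. Of 786 member fold changes under alternatives, 738 kept their direction and side of the threshold, 13 gained a call, 16 lost one and 19 changed sign; no fold change that changed sign was called by DESeq2 with all libraries. Leaving belinostat replicate 17 out of contrasts without belinostat, and all alternatives of PAPPA, DIRC3 and listed genes, were added after seeing the data.

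The number of members called in GSK-J4 versus vehicle was 2, against 0 with edgeR and 0 to 2 without single libraries. In belinostat versus GSK-J4 it was 1, against 2 with library totals, 2 with the compared groups alone and 1 to 3 without single libraries. In GSK-J4 versus unstimulated cells it was 2, against 4 with the compared groups alone and 2 to 4 without single libraries. Over all genes, GSK-J4 versus vehicle gave 253, against 91 and 132 to 432 in the same order of fits. Belinostat versus GSK-J4 gave 1795, against 1854, 1623 and 1314 to 2136. GSK-J4 versus unstimulated cells gave 930, against 993 and 651 to 1308.

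Sign changes without single libraries gave log2 fold changes, in vehicle versus unstimulated cells, of -0.48 to 0.60 for IGF1, -0.04 to 0.17 for IGFBP4 and -0.09 to 0.00 for IGFBP7. In belinostat versus vehicle they gave -0.06 to 0.13 for IGF2R and -0.13 to 0.58 for IGFBP2. In GSK-J4 versus vehicle they gave -0.30 to 0.38 for IGF1R, -0.03 to 0.08 for IGFBP4 (-0.01 with library totals) and -0.09 to 0.03 for IGFBP7. Ranges were -0.64 to 0.32 for IGFBP2 in belinostat versus GSK-J4, -0.17 to 0.91 for IGF1 in belinostat versus unstimulated cells, and -0.63 to 0.44 for IGF1 and -0.03 to 0.18 for IGFBP4 in GSK-J4 versus unstimulated cells. The cause was not tested. Counts over all genes ranged from 91 (edgeR) to 542 (the compared groups alone) in GSK-J4 versus vehicle, against 253, and from 166 (edgeR) to 453 (without belinostat replicate 17) in vehicle versus unstimulated cells, against 282. TMM factors and library totals moved the median of all genes by at most 0.019. Depth limits IGF1R, IGFBP2 and IGFBP1, at 12 counts or fewer.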
